A study of Mus musculus with 4 samples.

Results

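The killer lectin receptor high cells (KLR-high cells) are CD8 T cells of 4 single-cell RNA libraries. They have the highest mean log expression of 5 natural killer (NK) cell lectin receptor genes and the transcription factor gene Zeb2 among the filtered cells. The cells had been sorted for CD8, CD44 and CD90.1 from lymph nodes that drain a tumour, taken from C57BL/6 mice on day 14 after implantation. The replicates 1 and 2 labelled C6M9 have low affinity GP33 and those labelled M9 have high affinity GP33; GP33 is the viral peptide recognised by the P14 T cell receptor (TCR), and all 4 libraries share the tissue, the sort and the day. Cells were pooled from 35 mice for C6M9 and 10 for M9, and no label links a cell or a library to single mice. Libraries therefore served as replicates (n = 2 in each group), and p-values measure the spread between libraries, estimated jointly over genes of like level. Where cell sets of the same library are compared, they measure the spread of the within-library differences, also estimated jointly over genes. The labels do not say whether the 2 libraries of a group hold separate pools of mice. The study as titled concerns how TCR engagement sustains progenitor exhausted cells. The minimum was 500 genes and 1000 UMIs (unique molecular identifiers, the counted RNA molecules) per cell, with up to 10% mitochondrial UMIs. Cells with 2 or more UMIs of the B cell genes Cd79a and Ms4a1, 5 or more of the granzyme genes Gzma and Gzmb, or 3 or more of the cycling genes Mki67, Top2a and Ccnb2 were left out. A score, the mean log of the UMIs per 10000 plus 1 over Klre1, Klrc1, Klrc2, Klrk1, Klrd1 and Zeb2, was then ranked over all libraries together and the top 12% taken. This gave 859 KLR-high cells of 7160 filtered cells and 11113 barcodes in all, with 305 and 178 in the C6M9 replicates 1 and 2 and 266 and 110 in the M9 replicates 1 and 2. The cells were chosen by the measured levels of the 6 score genes, so these levels are given below as a description with no test. Score and filter genes stayed in the fits, but only genes that neither the score nor the filters used are read as results.

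The lectin receptors of this group sit on NK cells and on CD8 T cells that have met antigen. Klrd1 encodes CD94, which pairs with NKG2A, the inhibitory product of Klrc1, or with the activating products of Klrc2 and Klrc3, and these pairs bind the non-classical MHC molecule Qa-1, whose heavy chain is encoded by H2-T23. Klrk1 encodes NKG2D, an activating receptor for ligands shown by stressed cells, Klre1 encodes a partner chain for the products of Klri1 and Klri2, and Zeb2 is a transcriptional repressor that in mouse CD8 T cells acts downstream of the factor T-bet in terminal effector cells. The activating chains carry no signalling tail and rely on the adaptors DAP10, encoded by Hcst, and DAP12, encoded by Tyrobp.

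Except for Zeb2 on chromosome 2 (44983632 to 45117395, minus strand), the score genes lie within one stretch of chromosome 6 in the GENCODE annotation of the mouse genome build GRCm38 (mm10). The stretch runs over 162.6 kb from 129577905 to 129740484 and holds 8 receptor genes. In order they are Klre1 (129577905 to 129585827, plus strand), Klrd1 (129591782 to 129598775, plus), Klrk1 (129610323 to 129623864, minus), Klrc3 (129639064 to 129643337, minus), Klrc2 (129647496 to 129660689, minus), Klrc1 (129666015 to 129678973, minus), Klri1 (129697218 to 129717132, minus) and Klri2 (129729041 to 129740484, minus). RefSeq promoter windows on GRCm38.p6, from 250 bases before to 50 bases after a transcript start, were found for 5 of the 6 score genes. One window each is shown for Klre1 (chr6:129577963-129578262, plus strand), Klrk1 (chr6:129623815-129624114, minus), Klrc2 (chr6:129660547-129660846, minus) and Klrc1 (chr6:129678924-129679223, minus), because the transcripts of these neighbours chose the cells. Capitals mark matches on either strand to TGTGGT, a core of RUNX sites, or TCACAC, a core of T-box sites.
Klre1: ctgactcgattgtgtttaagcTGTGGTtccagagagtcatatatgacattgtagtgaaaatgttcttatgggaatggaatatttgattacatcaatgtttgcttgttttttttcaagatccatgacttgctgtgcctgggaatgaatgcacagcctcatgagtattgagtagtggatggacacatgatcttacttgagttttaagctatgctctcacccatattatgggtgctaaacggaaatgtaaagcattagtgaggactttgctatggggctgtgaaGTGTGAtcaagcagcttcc
Klrk1: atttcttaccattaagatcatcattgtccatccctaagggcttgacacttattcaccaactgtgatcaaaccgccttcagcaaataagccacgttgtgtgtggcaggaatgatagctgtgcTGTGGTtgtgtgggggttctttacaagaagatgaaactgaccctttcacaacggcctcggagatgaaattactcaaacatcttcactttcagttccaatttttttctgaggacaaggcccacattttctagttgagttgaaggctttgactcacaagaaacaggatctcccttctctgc
Klrc2: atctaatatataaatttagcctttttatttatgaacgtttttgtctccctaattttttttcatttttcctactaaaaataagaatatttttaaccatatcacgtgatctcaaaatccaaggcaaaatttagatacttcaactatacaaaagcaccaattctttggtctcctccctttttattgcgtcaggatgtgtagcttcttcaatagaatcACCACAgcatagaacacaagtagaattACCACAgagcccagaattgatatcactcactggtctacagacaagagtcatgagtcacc
Klrc1: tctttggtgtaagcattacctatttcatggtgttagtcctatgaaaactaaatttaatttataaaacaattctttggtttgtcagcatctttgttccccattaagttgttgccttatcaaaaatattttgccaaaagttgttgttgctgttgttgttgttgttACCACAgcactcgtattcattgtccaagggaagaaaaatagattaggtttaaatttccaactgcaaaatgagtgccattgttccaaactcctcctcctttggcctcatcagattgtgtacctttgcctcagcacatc

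In the windows shown, the RUNX letters stood once in those of Klre1, Klrk1 and Klrc1 and at 2 places in that of Klrc2, and the T-box letters once in that of Klre1. A second, overlapping window of Klre1 (chr6:129578036-129578335) held the T-box letters but not the RUNX letters. Of all 32851 windows in the table, 16.76% held the RUNX letters and 14.49% the T-box letters at least once. The E2-box letters CACCTG, which ZEB proteins bind, stood in a second, overlapping window of Klrc2 and in 20.21% of all windows. Windows of Zeb2 held none of the 3 motifs. The motifs were chosen with the expression results known, and a match of letters says nothing of occupancy.

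The libraries held 73379913 and 65721043 UMIs for C6M9 and 79174627 and 33680632 for M9. KLR-high cells had a median of 10992 and 16181.5 UMIs in the C6M9 replicates and 10448.5 and 17020.5 in the M9 replicates, against 11015, 15555.5, 11943.5 and 17610 in the other filtered cells of the same libraries. Their mitochondrial share was lower in every library, with medians of 3.64% to 3.97% against 4.27% to 4.58% in the other cells. The score ran without a gap across the boundary, with 0.806 in the lowest KLR-high cell and 0.805 in the highest cell outside. The cells 100 ranks inside and outside scored 0.843 and 0.768, and the set is a range of a score. The median score was 1.04 in KLR-high cells and 0.301 in the others. Of the KLR-high cells, 14 were among the highest doublet scores and 1 carried a barcode found in more than 1 library, of 7 such barcodes in all.

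KLR-high cells carried the genes of CD8 T cells and lacked those that define NK cells. Cd8a averaged 502 ± 32.6 UMIs per 1000000 (CPM) in KLR-high cells and 583 ± 27.2 in the others (SD over 4 libraries), and Cd8b1 1165 ± 68.3 and 1096 ± 102. Cd8a was lower in KLR-high cells by a small amount (log2 difference -0.28 ± 0.04, adjusted p = 9.4e-05, edgeR quasi-likelihood test with Benjamini-Hochberg adjustment, as for every adjusted p below), and Cd8b1 did not pass (adjusted p = 0.582). The NK receptor gene Ncr1 had no UMI in either set, and of 9 NK and innate lymphoid genes summed, 5 had none in KLR-high cells. Their summed level was 14.4 to 40.1 CPM in KLR-high cells and 4.54 to 9.19 CPM in the others, and in KLR-high cells most of it was Kit, the stem cell factor receptor. Kit had 15.1 and 13.8 CPM in C6M9 and 38.2 and 27.0 CPM in M9 KLR-high cells, against 1.02, 1.31, 4.33 and 3.98 CPM in the others, a log2 difference of 3.16 ± 0.18 (SE, adjusted p = 4.71e-08). Summed B cell genes were lower in KLR-high cells (52.9 to 70.0 CPM against 94.5 to 124 CPM; 13 of 15 listed genes, without Ighm and Cd22, left out after their levels in these T cells were seen). Summed myeloid genes were 107 to 131 CPM against 73.1 to 106 CPM, and 7 of those 12 genes had no UMI in KLR-high cells. The part of either in the results below was not tested. Of the UMIs of TCR beta variable segments, Trbv13-3, the segment of the P14 receptor, made up 95.3% in KLR-high cells (1410 of 1480, exact binomial 95% interval 94.1% to 96.3%) and 92.8% in the others (92.2% to 93.3%), intervals that pool the libraries and cover counting error only. By library the beta share was 93.6% to 96.4% in KLR-high cells and 91.7% to 93.8% in the others. The share of the alpha segment Trav14 was 72.5% to 87.1% in KLR-high cells and 78.1% to 81.3% in the others, so it varied more between libraries than between the sets.

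The score genes, which chose the cells, stood apart by design in every library. Klrd1 had 1025 and 1015 CPM in C6M9 and 1015 and 966 CPM in M9 KLR-high cells, against 324 and 343 CPM in C6M9 and 219 and 186 CPM in M9 other cells. Klrk1 had 730, 680, 656 and 627 CPM, against 153, 127, 135 and 123 CPM in the others, in the same order. The other filtered cells also held clear levels of both genes, so CD94 and NKG2D transcripts were not restricted to KLR-high cells. Klrc1 had 176, 198, 155 and 202 CPM in KLR-high cells against 14.1 to 22.3 CPM, and Klrc2 111, 121, 140 and 169 CPM against 9.02 to 15.6 CPM. These inhibitory and activating partners of CD94 were thus present together in every library. Klre1 had 62.2 to 89.3 CPM against 1.12 to 2.24 CPM, and Zeb2 had 38.7 to 53.9 CPM against 2.62 to 5.04 CPM. Klrc1 and Klrc2 share sequence. Of the words of 50 bases in the last 500 bases of Klrc1 transcripts, near the 3′ end where the kit reads, 39.3% occur anywhere in Klrc2 transcripts. The other way it was 15.8%, so some reads may have been counted to neither.

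**Figure D1:**
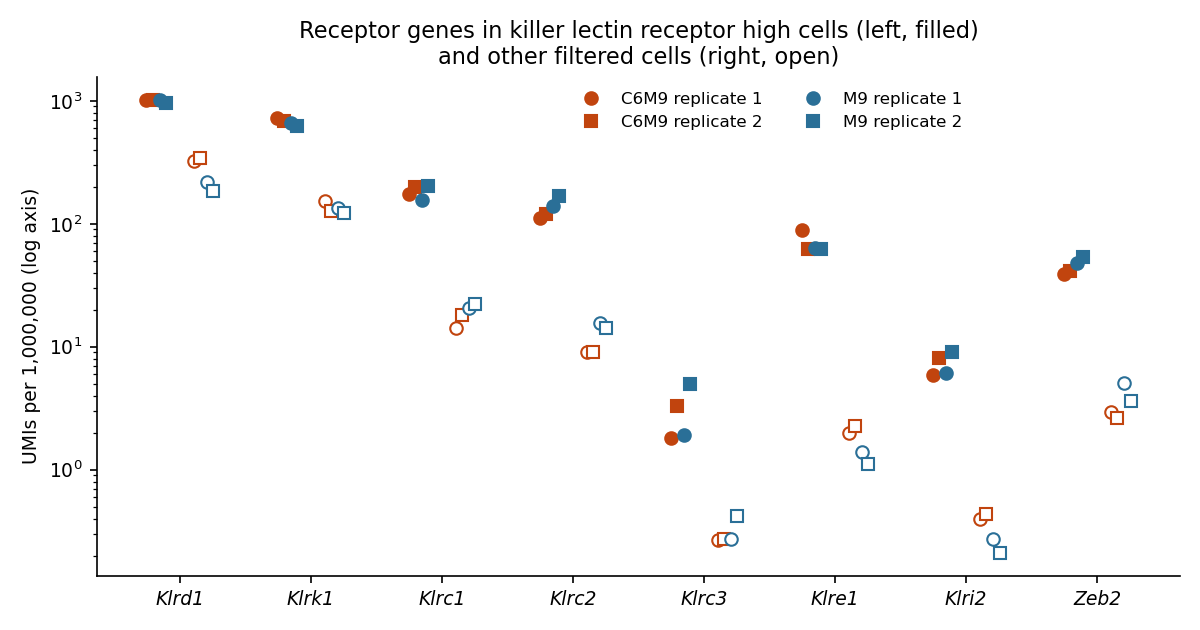
Levels of 7 lectin receptor genes and Zeb2 in UMIs per 1000000 (log axis), one point per library, with KLR-high cells filled at left and other filtered cells open at right; colour gives the group and shape the replicate. KLR-high cells stood above the others in every library, also for Klrc3 and Klri2, which the score did not use.

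Within single KLR-high cells the receptors were found in many combinations. Of the 859 cells, 15 showed 2 of the 6 score genes, 165 showed 3, 340 showed 4, 263 showed 5 and 76 showed all 6. Klrk1 and Klrd1 were seen together in 99.3% of KLR-high cells, against 45.7% of the others. Klrc1 and Klrc2 were both seen in 60.4%, Klrc1 alone in 22.0%, Klrc2 alone in 12.6% and neither in 5.01% of KLR-high cells. Neither Klre1 nor Zeb2 was seen in 42.1% of KLR-high cells, and both were seen in 13%. Since the cells were selected on the mean log level of these genes, how often 2 of them coincide within the set is partly set by that choice. With every cell thinned to 2000 UMIs, Klrd1 was seen in 83.4% of KLR-high cells, 37.4% of the others and 1 of 45 B cells that the filter had left out and that held few T cell UMIs (99.9% and 79.4% of KLR-high and other cells before thinning), and Klrc1 in 29.2%, 3.34% and 0 of 45 B cells, which allows a share of up to 6.67%. For Zeb2 the thinned shares were 9.68% and 0.700%, and 8.89% of the B cells, so the B cells give no background for that gene.

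The share of filtered cells that were KLR-high was 15.5% and 16.1% in C6M9 and 8.20% and 13.1% in M9 (exact binomial 95% intervals 13.9% to 17.2%, 14.0% to 18.4%, 7.28% to 9.20% and 10.9% to 15.6%, which cover counting error only). The means were 15.8% ± 0.433 in C6M9 and 10.6% ± 3.46 in M9 (SD, n = 2). The groups did not overlap, but the M9 replicates differed from each other by nearly as much as the group means. The difference was 5.14 percentage points, and 2.69 points without M9 replicate 1. No test was made, because the score chose the cells and an exact permutation of 2 libraries against 2 cannot reach the threshold of 0.05.

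Receptor genes of the same stretch that the score did not use were also higher in KLR-high cells than in other filtered cells of the same library. Klri2, an activating partner of the Klre1 product, had 5.90 and 8.07 CPM in C6M9 and 6.10 and 8.99 CPM in M9 KLR-high cells, against 0.398, 0.438, 0.271 and 0.210 CPM in the others. Its log2 difference was 4.30 ± 0.32 (SE, adjusted p = 4.5e-07), resting on 87 UMIs in KLR-high cells and 31 in the others. Klrc3, the third partner of CD94 in this stretch, had 1.80, 3.29, 1.93 and 4.99 CPM against 0.265 to 0.419 CPM, a log2 difference of 3.10 ± 0.40 (adjusted p = 6.51e-05). For both genes the lowest KLR-high library lay above the highest library of the others; Klrc3 shares 15.5% of its 3′ words with Klrc2. Klri1 had no UMI in KLR-high cells and 1 in the others. Of 27 genes outside the score that were listed with the receptor family, some of them ligands, only 6 were high enough to test. Of these, 3 were higher and 3 lower, and of all 10773 genes tested 26.5% passed (12.5% higher, 14.0% lower). The third higher one was Clec2d, a ligand of NKR-P1 receptors (0.24 ± 0.04). The lower ones were Klrb1c (log2 difference -1.04 ± 0.36, adjusted p = 0.0468), which encodes NK1.1, Klrb1f (-0.62 ± 0.15, adjusted p = 0.00801) and Clec2i (-0.67 ± 0.07, adjusted p = 8.16e-06), a ligand of an NKR-P1 receptor. Klrb1c did not pass with DESeq2, or without C6M9 replicate 1 or either M9 replicate, and Klrb1f did not pass without M9 replicate 2. Klrg1, the receptor that marks short-lived effector cells, had 1 UMI in all KLR-high cells and 6 in the others.

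Of the 2 adaptors, transcripts of DAP10 were abundant and those of DAP12 near 0. Hcst had 529 to 580 CPM in KLR-high cells and 550 to 591 CPM in the others, a log2 difference of -0.09 ± 0.03 (adjusted p = 0.0629). Tyrobp had 8 UMIs in all KLR-high cells, 0 to 1.28 CPM, and Fcer1g, another adaptor of NK receptors, had 9 UMIs. Among 15 adaptor and signal genes tested, 5 were higher and 3 lower in KLR-high cells, where 12.5% and 14.0% of all genes were, so the lower share was near that of all genes (median log2 difference -0.05, against 0.00 over all genes). The lower ones included Ptpn6, which encodes the phosphatase SHP-1 recruited by inhibitory receptors (92.7 ± 14.1 against 164 ± 20.9 CPM, SD, n = 4; log2 difference -0.88 ± 0.06, adjusted p = 1.24e-07). Sh2d1a, the adaptor SAP of the SLAM receptors, was higher (0.37 ± 0.07, adjusted p = 0.000845). Of the ligand genes, 5 of 8 tested were higher, among them H2-T23 with 376, 388, 377 and 380 CPM in KLR-high cells against 293, 309, 288 and 300 CPM in the others (log2 difference 0.30 ± 0.04, adjusted p = 7.5e-05).

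Among genes of 20 CPM or more outside the score, Lgals3 had the largest positive difference between KLR-high and other filtered cells. Lgals3, which encodes galectin-3 (chromosome 14, 47367751 to 47386160), had 115 and 104 CPM in C6M9 and 66.4 and 76.4 CPM in M9 KLR-high cells, against 14.5, 19.3, 8.05 and 6.85 CPM in the others. The sets did not overlap, and the log2 difference was 2.86 ± 0.12 (adjusted p = 3.35e-09). Ly6a, which encodes the memory and interferon marker Sca-1, had 395, 309, 235 and 282 CPM against 113, 96.9, 50.7 and 58.3 CPM (1.91 ± 0.08, adjusted p = 4.05e-09). Il18rap, a chain of the interleukin-18 receptor, had 72.3, 68.2, 71.6 and 79.4 CPM against 34.3, 24.0, 14.0 and 19.2 CPM (1.64 ± 0.16, adjusted p = 4.57e-06). Its level was alike in the 4 KLR-high sums and about as high in M9 as in C6M9, unlike in the other cells. Plac8, found in effector and memory T cells, had 622, 341, 238 and 269 CPM against 193, 198, 44.4 and 59.2 CPM (1.67 ± 0.18, adjusted p = 1.32e-05). The remaining 8 genes named by size of difference were Serpinb6a (1.70 ± 0.07), a protease inhibitor, Tnip3 (1.57 ± 0.09), Impa2 (1.55 ± 0.08), Lysmd2 (1.51 ± 0.11), Xdh (1.50 ± 0.10), which encodes xanthine dehydrogenase, Mdfic (1.50 ± 0.13), Slc25a24 (1.47 ± 0.10), a mitochondrial carrier, and Wdfy1 (1.39 ± 0.11).

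Among genes of 20 CPM or more, the one that fell most in KLR-high cells was Trat1, which encodes an adaptor of the TCR complex (chromosome 16, 48730774 to 48772021). Trat1 had 22.1 and 19.4 CPM in C6M9 and 22.8 and 22.0 CPM in M9 KLR-high cells, against 62.4, 59.9, 75.03 and 92.1 CPM in the others. The log2 difference was -1.76 ± 0.09 (adjusted p = 1.86e-08), with a gap between the sets of more than the range of the KLR-high libraries. Il6ra, the interleukin-6 receptor, had 8.98 to 19.7 CPM against 29.6 to 50.04 CPM (-1.55 ± 0.10, adjusted p = 1.27e-07). Dtx1, an E3 ligase induced in anergic T cells, had 9.87 to 18.9 CPM against 31.5 to 43.5 CPM (-1.46 ± 0.16, adjusted p = 1.72e-05). The others were Ccl4 (-1.38 ± 0.21), a chemokine, Gpatch4 (-1.37 ± 0.12), Egr1 (-1.35 ± 0.08), Hmgn1 (-1.33 ± 0.06), Gadd45b (-1.28 ± 0.20), Cd22 (-1.21 ± 0.18), Kdm6b (-1.17 ± 0.11), a histone demethylase, Tmem108 (-1.16 ± 0.10) and Izumo1r (-1.15 ± 0.17), which encodes the folate receptor 4. All 24 genes kept their direction and passed under every alternative run. The boundary of the set is a choice, and 1852 genes passed with DESeq2, against 2859 with edgeR. The errors printed with these log2 differences are those of the fit, shared over genes, and can be narrower than the spread between libraries. For Plac8 the within-library differences were 1.69 and 0.79 in C6M9 and 2.42 and 2.18 in M9. For Gadd45b they were -0.34 and -0.69 in C6M9 and -1.88 and -1.91 in M9.

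**Figure D2:**
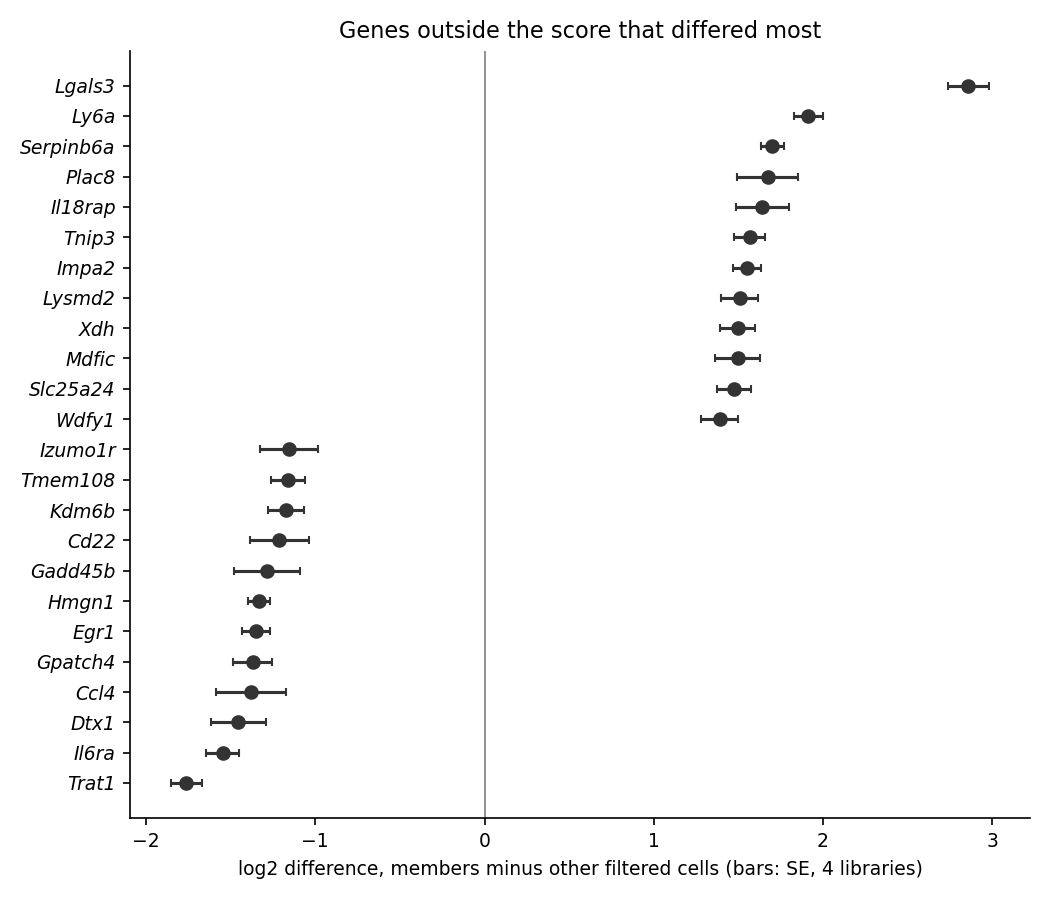
Log2 difference of KLR-high cells minus other filtered cells for the 12 genes with the largest difference in each direction among those of 20 CPM or more. Points are estimates and bars the SE of the edgeR fit to 4 libraries, with an error shared over genes. Lgals3 (2.86) stands apart at the top and Trat1 (-1.76) at the bottom.

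Genes induced by TCR signals split in an unequal way. Of 30 listed, 16 were lower in KLR-high cells, 4 were higher and 10 did not pass, with a median log2 difference of -0.63 (0.00 over all genes; 14.0% of all genes were lower). The lower ones included the immediate transcription factors. Egr1 had 17.7 and 14.4 CPM in C6M9 and 31.8 and 29.5 CPM in M9 KLR-high cells, against 38.0, 38.8, 76.8 and 77.6 CPM in the others (adjusted p = 1.17e-07). Egr1 was lower in KLR-high cells of each library, and within both sets the C6M9 values lay below the M9 values. Egr2 (-2.46 ± 0.20), Egr3 (-1.99 ± 0.21), Nr4a1 (-1.52 ± 0.21), Irf4 (-1.16 ± 0.15) and Myc were lower too, as were the co-stimulatory genes Cd83 (-2.84 ± 0.15), Tnfsf4 (-1.58 ± 0.16) and Tnfrsf9. Genes of 3 feedback inhibitors of MAP kinase signalling were among the 4 that were higher. Spry2 had 14.6, 14.7, 9.31 and 8.49 CPM in KLR-high cells against 1.06, 1.91, 1.53 and 0.908 CPM in the others (3.04 ± 0.24, adjusted p = 7.08e-07). Spry1 had 7.69 to 24.4 CPM against 1.61 to 4.53 CPM (2.66 ± 0.22, adjusted p = 1.39e-06), and Dusp4, a nuclear phosphatase of MAP kinases, 9.75 to 21.8 CPM against 2.03 to 7.33 CPM (2.04 ± 0.19, adjusted p = 4e-06). Irf8 was the fourth (0.38 ± 0.10) and did not pass without C6M9 replicate 1 or M9 replicate 2. Cd69, Nr4a2 and Cd200 did not pass, with log2 differences of -0.03, 0.28 and -0.21. For Nr4a2 and Cd200 these average opposite directions. Within libraries Nr4a2 differed by 2.46 and 0.93 in C6M9 and -0.36 and -0.13 in M9, and Cd200 by 0.25 and 0.79 in C6M9 and -0.58 and -0.66 in M9. Of the 30 genes, 11 had a more positive difference in C6M9 by the interaction test set out below, against 1.59% of all genes. All these values are against all other filtered cells. Against cells high in Il7r and S1pr1, set out below, the list went the other way, with a median log2 difference of 0.48.

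**Figure D3:**
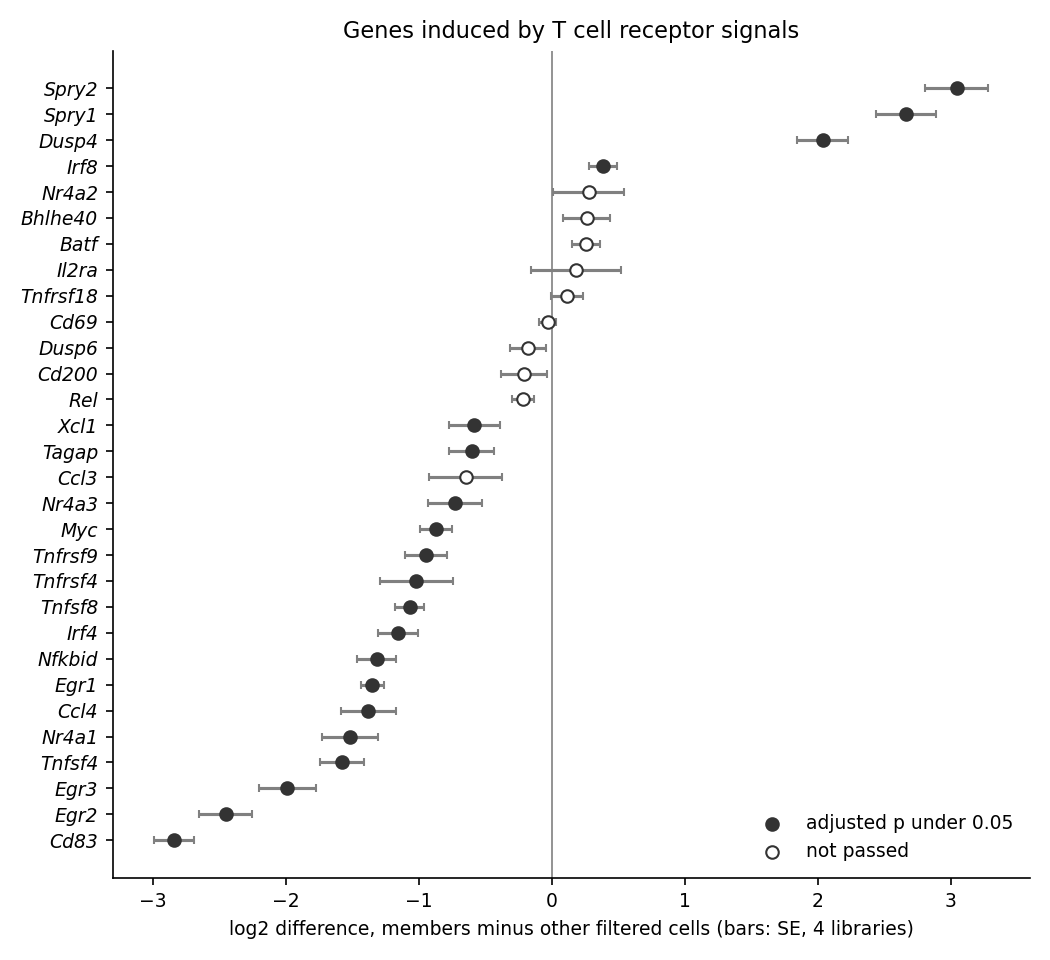
Log2 difference of KLR-high cells minus other filtered cells for 30 genes induced by TCR signals. Bars are the SE of the edgeR fit to 4 libraries, with an error shared over genes. Filled points passed the adjusted threshold of 0.05 and open points did not. Spry2, Spry1 and Dusp4 lie above 2 and Cd83 and Egr2 lie below -2.

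Memory and effector surface genes were mostly higher. Of 28 tested, 19 were higher and 3 lower (median 0.35), where 12.5% of all genes were higher and 14.0% lower, the lower ones being Itgae, the alpha E integrin of tissue-resident cells (1.03 ± 0.535 against 7.85 ± 1.74 CPM; -2.96 ± 0.31), Itgb1 (-0.22 ± 0.05) and Tmsb10 (-0.20). S100a6 had 1064, 919, 624 and 671 CPM in KLR-high cells against 586, 402, 211 and 220 CPM in the others (1.24 ± 0.09, adjusted p = 4.49e-07). Itgax, which encodes the integrin CD11c, had 7.38 to 12.8 CPM against 0.140 to 1.31 CPM (3.86 ± 0.35, adjusted p = 2.54e-06), and Itga4, the alpha 4 integrin, 288 to 361 CPM against 148 to 171 CPM (1.01 ± 0.05, adjusted p = 1.86e-08). Ly6c2 averaged 814 ± 265 CPM against 336 ± 179 CPM (1.32 ± 0.11) and shares 34.4% of its 3′ words with Ly6c1.

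Cytotoxic genes were divided. Of 21 tested, 10 were higher and 6 lower (median 0.23), where 12.5% of all genes were higher and 14.0% lower. Fasl, the ligand of the death receptor Fas, had 13.6, 9.27, 14.8 and 14.0 CPM in KLR-high cells against 1.37, 1.64, 3.96 and 2.86 CPM in the others (2.38 ± 0.23, adjusted p = 5.07e-06). Gzmm, which the filter on Gzma and Gzmb did not use, had 21.0, 12.6, 8.02 and 6.99 CPM against 4.64, 3.17, 2.31 and 1.26 CPM (2.01 ± 0.18, adjusted p = 3.07e-06). The chemokine gene Ccl5 was higher (1.05 ± 0.17, adjusted p = 0.000437), while Nkg7, a granule membrane protein, was slightly lower (884 ± 124 against 1001 ± 80.6 CPM; -0.24 ± 0.05, adjusted p = 0.0019). Prf1, which encodes perforin, differed little (64.6 ± 3.01 against 53.3 ± 5.89 CPM; 0.23 ± 0.07, adjusted p = 0.0369), and did not pass with DESeq2 or without either C6M9 replicate. Cx3cr1, a marker of terminal effector cells, passed at a low level (3.23 ± 2.33 against 0.731 ± 0.195 CPM; 1.92 ± 0.43, adjusted p = 0.00452). The cells are those left after granzyme-rich and cycling cells were removed, so these levels hold for that remainder only.

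Transcription factors of effector and memory cells were more often higher than lower (13 and 5 of 23 tested, median 0.33), where 12.5% of all genes were higher and 14.0% lower. Tbx21, which encodes T-bet, had 22.8, 17.6, 13.5 and 17.0 CPM in KLR-high cells against 13.7, 10.4, 8.29 and 10.6 CPM in the others (0.66 ± 0.11, adjusted p = 0.000514). Id2 (0.73 ± 0.11), Runx2 (0.93 ± 0.08), Rora (1.20 ± 0.16) and Nfil3 (1.37 ± 0.23) were higher as well, all known in NK or innate lymphoid cells or in effector T cells. Eomes, a T-box factor of memory cells, was lower (100.2 ± 26.2 against 166 ± 77.5 CPM; -0.69 ± 0.11, adjusted p = 0.000469), as were Runx3 (-0.29 ± 0.05), Klf3 (-0.75 ± 0.08), Klf2 (-0.34 ± 0.07) and Maf (-1.17 ± 0.20). Stemness factors went both ways, with 3 higher and 5 lower of 13. Tcf7, which encodes TCF1 and marks progenitor exhausted cells, had 605 and 663 CPM in C6M9 and 634 and 681 CPM in M9 KLR-high cells, against 518, 525, 498 and 547 CPM in the others. Every KLR-high library lay above every library of the others, by a log2 difference of 0.25 ± 0.04 (adjusted p = 0.000149). Myb was also higher (0.81 ± 0.09), whereas Id3 was lower (188 ± 16.3 against 335 ± 33.5 CPM; -0.89 ± 0.08, adjusted p = 1.67e-06), as were Sox4 and Foxp1.

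Cytokine receptor genes were more often higher than lower. Of 23 cytokine receptor genes, 10 were higher and 4 lower (median 0.18), where 12.5% of all genes were higher and 14.0% lower, so the lower share was near that of all genes. Il18r1, the partner of Il18rap, had 239, 220, 189 and 230 CPM in KLR-high cells against 127, 105, 65.6 and 72.2 CPM in the others (1.22 ± 0.10, adjusted p = 9.61e-07), and Il12rb2, an interleukin-12 receptor chain, 4.19 to 5.13 CPM against 0.574 to 1.04 CPM (2.59 ± 0.31, adjusted p = 3.22e-05). Il7r was higher (0.80 ± 0.14) and Il6st, the signal chain used with Il6ra, lower (-0.91). Of 19 inhibitory receptor and exhaustion genes, 6 were higher and 5 lower (median -0.20), against the same shares of all genes. Pdcd1, which encodes PD-1, Cd101 (1.38 ± 0.15), Cxcr6 (1.26 ± 0.21) and Ctla4 (0.82 ± 0.12) were among those higher, and Tox2 (-1.25) and Btla (-0.72) among those lower. Of 19 S phase genes, 1 was higher and 7 were lower, where 14.0% of all genes were lower, among them Mcm5 (-0.97) and Pcna (-0.54).

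The differences were graded along the score. From the ranks 50% to 100% of all filtered cells through 25% to 50%, 12% to 25%, 6% to 12% and 3% to 6% up to the top 3%, Lgals3 averaged 7.23, 15.1, 23.1, 54.4, 106 and 152 CPM over the 4 libraries. Itgax, from 0.143 CPM in the lowest of these ranks to 18.3 CPM in the top 3%, and Kit, from 2.39 CPM to 44.7 CPM, were steepest above the boundary. Trat1 averaged 74.3, 72.6, 62.3, 30.5, 13 and 9.76 CPM, so its decline lay mainly within the top 25%. Tcf7 averaged 496, 533, 596, 639, 686 and 621 CPM, with its highest mean in the ranks 3% to 6%. Pdcd1 averaged 26.8, 24.6, 29.2, 44.2, 50.8 and 77.2 CPM. Over 9107 genes seen in at least 5% of filtered cells, the genes most like the score by the mean Pearson correlation across cells within a library were Ly6a (0.39), Ms4a4b (0.38), Serpinb6b (0.33), Serpinb6a (0.32), Lgals3 (0.32), Plac8 (0.31), Selplg (0.31), Arl6ip1 (0.31), Gm17745 (0.31) and Il18rap (0.30). These values are a description: the cells of a library share its preparation and differ in depth.

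**Figure D4:**
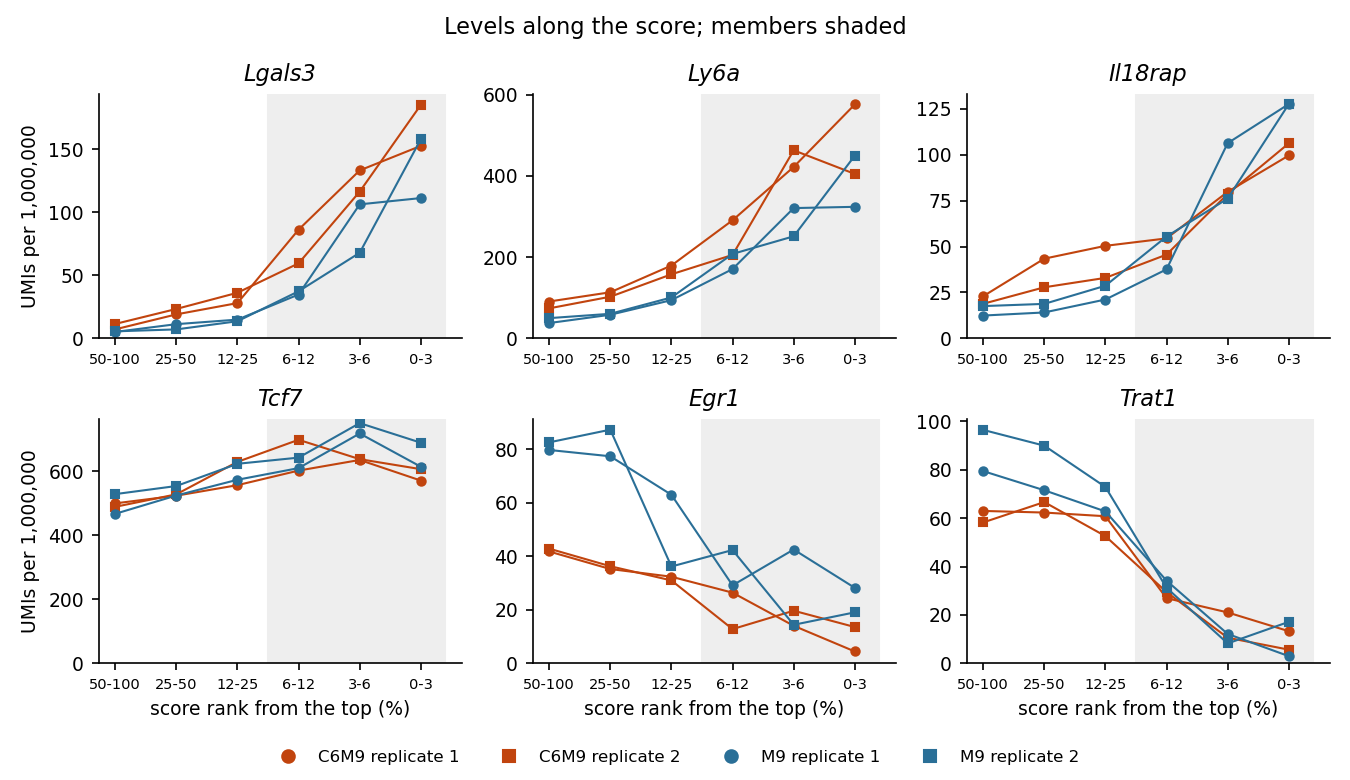
Levels of 6 genes in UMIs per 1000000 by rank of the score, from ranks 50% to 100% at left to the top 3% at right, one line per library; the shaded ranks are KLR-high cells. Lgals3, Ly6a and Il18rap climb and Trat1 declines in all 4 libraries, while Tcf7 stays at 467 CPM or above in every rank.

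Comparing C6M9 with M9 within KLR-high cells sets the low affinity group against the high affinity group. The groups also differed in mice pooled (35 and 10), cells loaded and share taken as KLR-high, which cannot be told apart from affinity. Few genes passed: of 9604 tested, 2 were higher (0.0208%) and 10 lower (0.104%) in C6M9, or 0.125% in all, although 1003 had an unadjusted p under 0.05. Vim, which encodes the filament protein vimentin, had 672 and 654 CPM in C6M9 and 455 and 398 CPM in M9 (log2 difference 0.72 ± 0.12, adjusted p = 0.0401). S100a6 had 1064 and 919 CPM in C6M9 and 624 and 671 CPM in M9 (0.71 ± 0.12, adjusted p = 0.0401). For both, each C6M9 library lay above each M9 library. Among the lower genes, Izumo1r had 13.8 and 17.9 CPM in C6M9 and 57.4 and 35.4 CPM in M9 (-1.51 ± 0.23, adjusted p = 0.0399), and Cd200, which encodes a ligand of an inhibitory receptor, 37.7 and 55.6 CPM in C6M9 and 124 and 95.4 CPM in M9 (-1.17 ± 0.18, adjusted p = 0.0399). Gpm6b had 10.5 and 12.6 CPM in C6M9 and 32.7 and 34.4 CPM in M9 (-1.45 ± 0.20, adjusted p = 0.0187). Rnf19a (-0.89 ± 0.15), Cirbp (-0.84 ± 0.14) and Zfpm1 (-0.74 ± 0.13) were also lower, and so were Cd22 (-2.94), Tnfsf4 (-2.91), Atp2b2 (-3.67) and 2310001H17Rik (-0.72), the first 3 below 20 CPM on average. Of these lower genes, Izumo1r, Cd200, Gpm6b, Cd22 and Tnfsf4, or 5, belong to a list of 17 tested progenitor exhausted genes (median log2 difference -0.92, against -0.01 over all genes), and that list was chosen with results of these data known. The count depended on settings: 2 genes, both lower, passed with size factors by relative log expression, 8 higher and 4 lower with DESeq2, of which 5 were among the 12, 0 with the top 6% of cells in edgeR (715 at an unadjusted p under 0.05), and 435, 204, 55 and 16 without M9 replicate 1, M9 replicate 2, C6M9 replicate 2 and C6M9 replicate 1, the last sharing 6 of the 12. A p that missed the threshold does not show equal levels.

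Among the score genes, described with no test, Klre1 had 89.3 and 62.2 CPM in C6M9 and 63.2 and 62.9 CPM in M9 KLR-high cells. Klrc2 had 111 and 121 CPM in C6M9 and 140 and 169 CPM in M9, and Zeb2 38.7 and 41.3 CPM in C6M9 and 47.8 and 53.9 CPM in M9. For Klrc2 and Zeb2 the groups did not overlap, with C6M9 the lower, and for Klre1 they did.

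Whether the group difference in KLR-high cells differed from that in other filtered cells was tested as an interaction over the 8 sums, with a term for the library. The error of that fit is shared over genes, so the error over the 4 within-library differences is given beside it. Of 11342 genes, 180 had a more positive (1.59%) and 137 a more negative (1.21%) C6M9 minus M9 difference in KLR-high cells, or 2.79% in all. The largest interactions in either direction were mostly genes that separated the groups in the other cells and less so in KLR-high cells. Pdcd1 had 56.9 and 53.2 CPM in C6M9 and 56.8 and 48.4 CPM in M9 KLR-high cells, against 17.0 and 13.6 CPM in C6M9 and 40.4 and 35.9 CPM in M9 other cells. The groups overlapped in KLR-high cells and stood apart in the others, with an interaction of 1.37 ± 0.15 on the log2 scale (adjusted p = 9.06e-12, SE over libraries 0.12). Nrn1, a surface protein of tolerised T cells, had 199.5 and 229.6 CPM in C6M9 and 149.8 and 214 CPM in M9 KLR-high cells, against 66.2 and 59.3 CPM in C6M9 and 148 and 109.6 CPM in M9 other cells (1.33 ± 0.11, SE over libraries 0.51). Lag3, another inhibitory receptor, had 96.7 and 111 CPM in C6M9 and 135 and 141 CPM in M9 KLR-high cells, against 77.6 and 75.9 CPM in C6M9 and 227 and 224 CPM in M9 other cells (1.14 ± 0.10, adjusted p = 1.85e-16, SE over libraries 0.12). Nrgn (2.19 ± 0.19), Alcam (1.60 ± 0.17), Nr4a2 (1.60 ± 0.21) and Gadd45b (1.34 ± 0.20) made up the rest of those named for size. Of 19 progenitor exhausted genes, 11 had a more positive and 1 a more negative difference in KLR-high cells (median 0.67, against 0.01 over all genes), and of 30 TCR-induced genes 11 had a more positive one and 19 did not pass (median 0.67).

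The interaction ran the other way for another set of genes, which included naive and central memory genes. Cxcr6, a chemokine receptor, had 75.7 and 47.8 CPM in C6M9 and 66.4 and 59.9 CPM in M9 KLR-high cells, against 36.9 and 36.5 CPM in C6M9 and 13.9 and 17.3 CPM in M9 other cells (-1.31 ± 0.16, SE over libraries 0.40). Ccl5 had 754 and 454 CPM in C6M9 and 487 and 562 CPM in M9 KLR-high cells, against 483 and 322 CPM in C6M9 and 121 and 224 CPM in M9 other cells (-1.11 ± 0.08). Within the libraries KLR-high minus other cells came to 0.64 and 0.50 for Ccl5 in C6M9 and 2.01 and 1.33 in M9 on the log2 scale. The group difference of these values had an SE over libraries of 0.35, so the error of the fit understates the spread between libraries for this gene. The same held for Nr4a2 (SE over libraries 0.77), Nrgn (0.68), Nrn1 (0.51), Plac8 (0.47), Cxcr6 (0.40), Alcam (0.32), Usp18 (0.26) and Tent5a (0.20). For Pdcd1, Gadd45b and Slco3a1 the SE over libraries was no larger than the error of the fit. Il7r had 532 and 468 CPM in C6M9 and 345 and 453 CPM in M9 KLR-high cells, against 424 and 338 CPM in C6M9 and 126 and 187 CPM in M9 other cells (-0.97 ± 0.07, adjusted p = 6.62e-21, SE over libraries 0.11). Il7r thus stood higher in C6M9 in both sets, by more in the other cells. Plac8 (-1.04 ± 0.11), Tent5a (-1.12 ± 0.14), Slco3a1 (-0.998 ± 0.18) and the interferon-induced Usp18 (-0.98 ± 0.19) were also named for size. Of 19 naive and central memory genes tested, 12 had a more negative difference in KLR-high cells and 7 did not pass (median -0.41). Of 28 memory and effector surface genes, 8 had a more negative and 2 a more positive difference, and 18 did not pass (median -0.12). Of 38 interferon-stimulated genes, 9 had a more negative one and 29 did not pass (median -0.32). Over all genes tested 1.21% had a more negative and 1.59% a more positive difference, with a median of 0.01. With DESeq2 59 genes passed, and Nrgn, Nr4a2, Nrn1, Ccl5, Plac8, Slco3a1 and Usp18 did not. The count was 193 and 157 without C6M9 replicates 1 and 2.

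**Figure D5:**
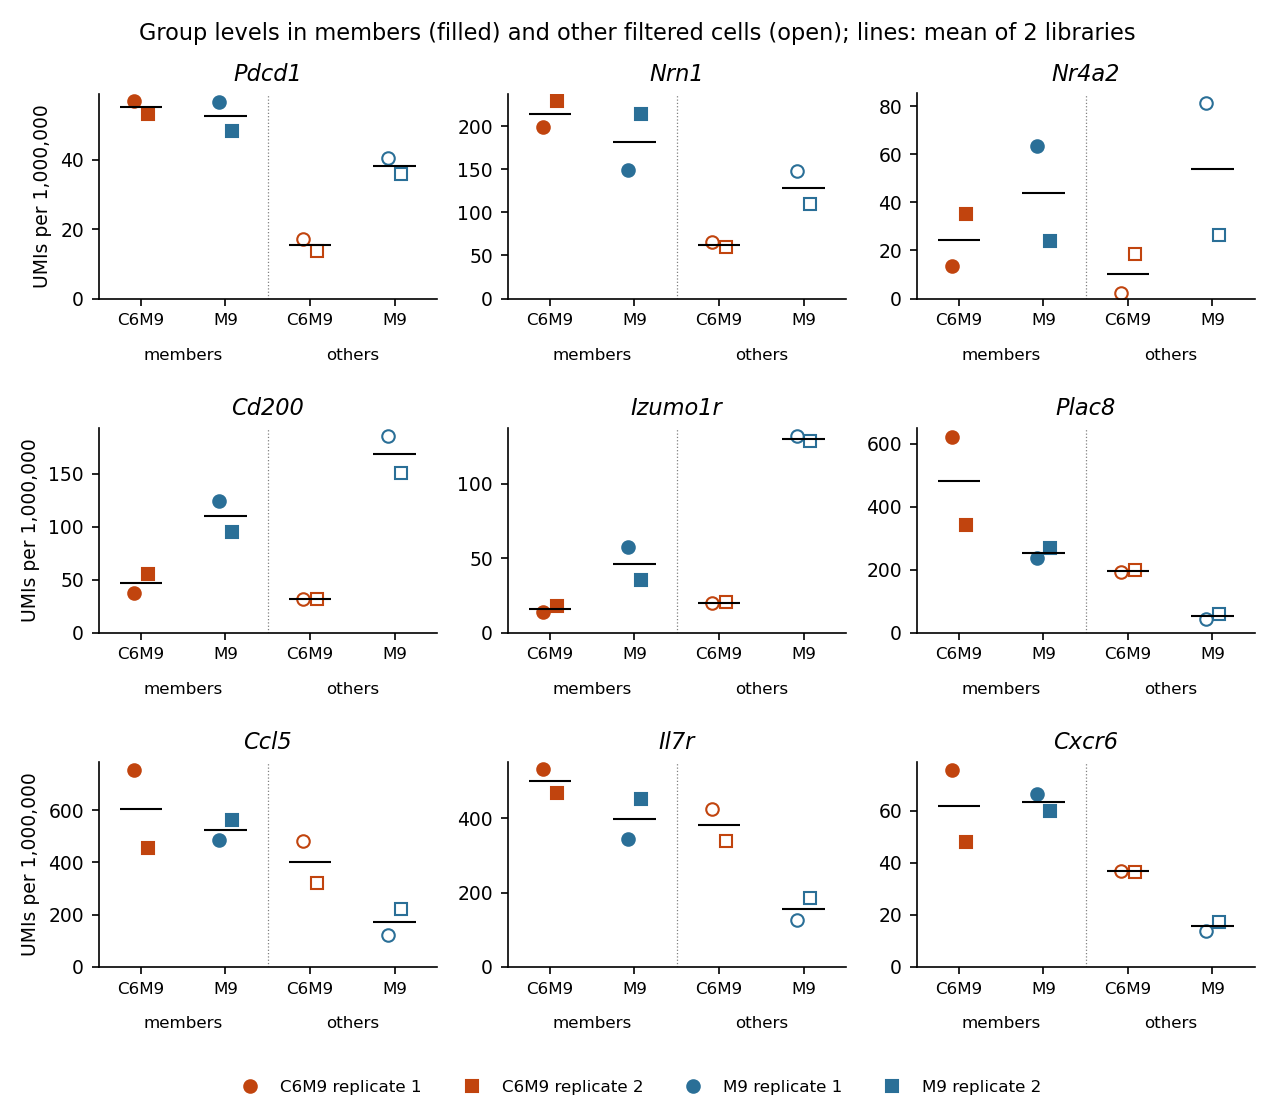
Levels of 9 genes in UMIs per 1000000 for C6M9 and M9 in KLR-high cells (members, filled, left) and other filtered cells (others, open, right); points are libraries and lines the mean of 2. Pdcd1 is at 48.4 to 56.9 CPM in all 4 KLR-high sums and at 13.6 to 40.4 CPM in the others.

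KLR-high cells were also set against the top 12% of the remaining filtered cells by Il7r and S1pr1, a receptor for exit from lymph nodes, which gave 397 and 164 cells in C6M9 and 121 and 74 in M9. Of 9375 genes, 827 were higher (8.82%) and 795 lower (8.48%) in KLR-high cells, or 17.3% in all. Pdcd1 (2.52 ± 0.14), Xcl1 (2.12 ± 0.14), a chemokine for cross-presenting dendritic cells, Lgals3 (2.41 ± 0.16) and Nrgn (3.08 ± 0.26) were higher. Nrn1, Acot7, Serpinb6a and Tnip3 were higher by 1.82 to 2.09. Il6ra (-2.22 ± 0.12), Trat1 (-1.81 ± 0.11), Dtx1 (-1.63 ± 0.17), Slc17a9, Tdrp, Trib2, Pag1 and Rflnb were lower, the last 5 with log2 differences of -1.61 to -1.52. Klf2, a factor that drives S1pr1, was lower by a log2 difference of -1.12 ± 0.07. Since S1pr1 helped to choose the comparison cells, this difference may in part be set by that choice and is a description. Tcf7 did not pass (0.07 ± 0.05, adjusted p = 0.385). Of 15 inhibitory receptor genes tested 9 were higher and none lower, and 9 of 17 progenitor exhausted genes were higher and 1 lower (medians 0.77 and 0.75), including Cd160 (1.30 ± 0.11) and Cd200 (0.93 ± 0.12). Of 28 TCR-induced genes tested 12 were higher and 4 lower (median 0.48), where 8.82% of all genes were higher and 8.48% lower. The count was 593 with DESeq2, and 882 and 948 without C6M9 replicates 1 and 2.

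Of 421 cells past the limit on Gzma and Gzmb, 40 were neither cycling nor B cells by the filters (13 and 7 in C6M9, 15 and 5 in M9), and KLR-high cells were set against these. Of 7669 genes tested, 32 were higher (0.417%) and 36 lower (0.469%) in KLR-high cells, or 0.887% in all. The lower ones include Gzma and Gzmb, which chose the granzyme cells and are no result. Nrn1 (2.72 ± 0.37, adjusted p = 0.000857), Myb (1.84 ± 0.26, adjusted p = 0.00107) and Ikzf2 (1.24 ± 0.25, adjusted p = 0.0212) were higher in KLR-high cells. The chemokine receptor gene Ccr2 was lower (-4.43 ± 0.45, adjusted p = 3.35e-05). Lgals3 was lower too (-2.24 ± 0.36, adjusted p = 0.00493), with 66.4 to 115 CPM in KLR-high cells and 198 to 1321 CPM in the granzyme cells. The count was 5 without C6M9 replicate 1, where Nrn1, Myb, Ikzf2 and Lgals3 did not pass, and 22 without M9 replicate 1. Of these 40 granzyme cells, 24 scored at or above the lowest KLR-high cell, and so did 329 of 2974 cells left out for cycling genes, so both sets hold cells of the same receptor level that the filters removed.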

How the data were processed

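Single-cell libraries were made with a 10x Genomics Chromium 3′ kit. Per the submitters' processing notes the reads were processed with Cell Ranger 6.0.0 on the mouse build mm10. The authors deposited 1 matrix of raw UMI counts per library, over 32285 genes, and no cell annotation. The cells and gene lists were chosen with earlier results of these data known, so list counts and medians are descriptions.

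Counts were summed per library over KLR-high cells and over each comparison set. Levels are UMIs per 1000000 of such a sum (CPM). Differences were tested with edgeR 4.0.16 (TMM scaling, filterByExpr, quasi-likelihood F test, Benjamini-Hochberg threshold 0.05). The SE printed with a log2 difference is that of this fit, with an error shared over genes. The library was a term in comparisons of cell sets and the group in C6M9 minus M9, and the interaction was fitted over all 8 sums with a library term. For it, the SE over libraries was also computed from the 4 within-library log2 differences of KLR-high minus other cells. Score and filter genes were left out of the counts of list genes and of the named genes. They stayed in the fits, and so in the totals of genes tested and passed and in the shares of all genes. Named genes were those of 20 CPM or more with the largest differences in the same direction in every library (12 per direction for the main comparisons, 6 for the interaction and 8 for the other sets; the sign condition was not set for the interaction), and members of the lists. Alternatives were DESeq2 1.42.0, size factors by relative log expression, no filter on low counts, other definitions of the cells, doublets left out and each library left out. Cells with a barcode shared by libraries were left out as an alternative added after seeing the data. Doublets were scored with Scrublet in scanpy 1.11.5. Its automatic threshold marked at most 0.327% of a library, so for the alternative the top scores, at 0.8% per 1000 barcodes, were left out. The test scripts were tested on simulated data. Replicate numbers were not used to pair the samples, since the labels give no shared batch. The residuals of C6M9 replicate 1 and M9 replicate 1 correlated at -0.07 over 5390 genes. With 2 libraries per group this cannot exclude a shared batch, and in both groups replicate 1 had fewer UMIs per cell than replicate 2. Coordinates came from GENCODE M21, which matched 32158 genes.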

Additional observations from a re-analysis of the deposited data

Results flagged for a closer look

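For 12 genes the C6M9 minus M9 difference in KLR-high cells differed from that in the other filtered cells by the interaction test, and these are the largest of 317 such genes at 20 CPM or more. The error of the fit is shared over genes, and over the 4 within-library differences the SE was 0.68 for Nrgn, 0.77 for Nr4a2 and 0.47 for Plac8. On the log2 scale the difference was more positive in KLR-high cells for Nrgn (2.19), Alcam (1.60), Nr4a2 (1.60), Pdcd1 (1.37), Gadd45b (1.34) and Nrn1 (1.33). It was more negative in KLR-high cells for Cxcr6 (-1.31), Tent5a (-1.12), Ccl5 (-1.11), Plac8 (-1.04), Slco3a1 (-0.998) and Usp18 (-0.98). Alcam, a cell adhesion molecule, had 33.1 and 36.2 CPM in C6M9 and 66.4 and 45.9 CPM in M9 KLR-high cells, against 13.4 and 11.3 CPM in C6M9 and 63.5 and 62.5 CPM in M9 other cells. Nr4a2, an orphan nuclear receptor induced by TCR signals, had 13.3 and 35.0 CPM in C6M9 and 63.5 and 24.0 CPM in M9 KLR-high cells, so its replicates differed widely, against 2.43 and 18.4 CPM in C6M9 and 81.3 and 26.2 CPM in M9 other cells.

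The filters removed cells of the same receptor score. Of 2974 cycling cells left out, 11.1% scored at or above the lowest KLR-high cell, and of the 40 non-cycling cells left out for Gzma and Gzmb alone, a remainder of 421 past that limit, 60% did. Groups of 2 libraries were too small to test for a library far from the others.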

How the results depend on the processing

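No group share and no gene named for the size of its difference changed direction under any alternative run. Of the checks of list genes that passed, 1 of 3346 changed direction for KLR-high minus other cells (335 no longer passed) and 5 of 1583 for the interaction (324 no longer passed). For KLR-high cells, C6M9 minus M9 (12 genes), 2 genes passed with size factors by relative log expression, 136 with no filter on low counts, 31 with equal cells per library, 41 with a score without Zeb2, 53 with a score after thinning to 2000 UMIs, 44 with the top 12% taken within each library and 63 with the top 20%. With the top 6% 0 genes passed in edgeR, while 715 had an unadjusted p under 0.05. Leaving out 1 library gave 16 to 435 genes, the lone library of a group then being assumed to vary like the others. With the replicate number as a block 23 genes passed, although the labels do not say that the numbers pair the samples. Of 125 checks of named genes in this comparison 27 no longer passed. For KLR-high minus other filtered cells (2859 genes), 1852 passed with DESeq2, 2064 with no replicate block and 2136 to 2363 without 1 library. For the interaction (317 genes), 59 passed with DESeq2, 159 with equal cells, 161 after thinning, 195 within each library, 146 with the top 6% and 157 to 322 without 1 library, and 376 with the replicate block. Against the granzyme cells (68 genes), 298 passed with no filter and 5 to 95 without 1 library. Against the Il7r and S1pr1 high cells (1622 genes), 593 passed with DESeq2 and 882 to 1652 without 1 library. The share difference between groups (5.14 points) was 2.69 to 7.59 points without 1 library. The cause of these changes was not tested. The top 12% within each library fixes the share, so that alternative gave no share. Depth limits Klrc3, Klri2 and Klrb1c, which rest on few UMIs, and the KLR-high cells of M9 replicate 2, 110 in number.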

Other observations

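Over all genes tested, 12.5% were higher and 14.0% lower in KLR-high cells. Of 23 immediate early and stress genes tested 10 were lower and 7 higher in KLR-high cells (median log2 difference -0.25, against 0.00 over all genes). Of 36 interferon-stimulated genes 7 were higher and 3 lower (median 0.17), a share near the 26.5% of all genes that passed. Of 20 homing receptor genes, 9 were higher and 5 lower (median 0.15). Of 19 naive and central memory genes 9 were lower and 6 higher (median 0.05). Treml2 and S1pr1 were among the lower ones (-0.92 and -0.62), while Ccr7, a chemokine receptor for entry into lymph nodes, was slightly higher (0.29).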
